A study of Mus musculus with 8 samples.

Results

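Bone morphogenetic protein (BMP) signalling in the dental pulp was followed through 10 genes chosen by name from 12148 measured ones: the ligands *Bmp2*, *Bmp4* and *Bmp7*, the receptors *Bmpr1a* and *Bmpr2*, the signal transducers *Smad1* and *Smad5*, and the transcriptional regulators *Id1*, *Id2* and *Id3*. All 10 were measured in every one of 8 RNA-Seq libraries of molar dental pulp taken at postnatal day 7 (P7) from C57BL/6J mice. Osterix-Cre controls gave 4 libraries, numbered 49 to 52, and *Tgfbr2cko* mice gave the other 4, numbered 53 to 56. Both genotypes carry Cre recombinase under the Osterix promoter, and *Tgfbr2cko* mice also carry a floxed *Tgfbr2*, the gene of the type II TGFβ receptor. Osterix-Cre acts in the mesenchyme that gives rise to pulp cells and odontoblasts, and the paper reports no Cre activity in neuronal afferents. Endothelial, blood and epithelial cells share the same RNA, and their *Tgfbr2* was not tested here. The first molars of the left and right side were combined, and the labels do not say whether each library came from a separate animal, so every p-value measures the spread between these libraries. Titles of the libraries hold another number with no stated meaning, 4 for libraries 49 and 50, 2 for 51, 54 and 55, 5 for 52, and 3 for 53 and 56. The comparison addresses whether the expression of BMP pathway genes differs when TGFβ reception is removed from the pulp mesenchyme.

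BMPs are secreted proteins of the TGFβ superfamily. They bind complexes of type I receptors, such as the product of *Bmpr1a*, and type II receptors, such as that of *Bmpr2*. The receptors phosphorylate Smad1, Smad5 and Smad9, which join Smad4 and enter the nucleus, and the Id genes are among the best known direct targets. Id proteins have a helix-loop-helix domain but no DNA-binding region, and they hold E proteins away from DNA. In the tooth, BMPs pass between epithelium and mesenchyme during morphogenesis and accompany odontoblast differentiation. TGFβ itself signals mainly through Smad2 and Smad3, and the pathways share Smad4.

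The helix-loop-helix code is what makes *Id1*, *Id2* and *Id3* a family and is the part of their transcripts in which reads of one could be taken for another. A stretch of 120 coding bases that lies in exon 1 of each gene was compared. It lies at chr2:152736518-152736637 on the plus strand for *Id1*, at chr12:25095783-25095902 on the minus strand for *Id2* and at chr4:136144002-136144121 on the plus strand for *Id3* (GRCm38, GENCODE M21). Capitals mark the bases that are identical in all 3 genes, and each sequence is read 5′ to 3′ along the transcript.
Id1: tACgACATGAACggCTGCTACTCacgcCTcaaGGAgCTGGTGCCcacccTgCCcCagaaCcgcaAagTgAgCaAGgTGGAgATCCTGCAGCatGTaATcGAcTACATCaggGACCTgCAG
Id2: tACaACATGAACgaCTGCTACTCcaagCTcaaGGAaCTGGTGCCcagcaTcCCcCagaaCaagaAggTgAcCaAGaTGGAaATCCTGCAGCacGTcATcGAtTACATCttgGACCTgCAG
Id3: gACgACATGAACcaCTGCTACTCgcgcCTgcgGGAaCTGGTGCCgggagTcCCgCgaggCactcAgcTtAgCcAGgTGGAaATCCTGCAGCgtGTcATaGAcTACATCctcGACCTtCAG
In this stretch 77 of 120 bases were identical in all 3 genes. *Id1* and *Id2* shared 98 bases (81.7%), *Id1* and *Id3* 85 (70.8%), and *Id2* and *Id3* 86 (71.7%). The differences are scattered, so that the longest run of identical bases anywhere in the compared transcripts was 11 for *Id1* and *Id2*, 12 for *Id1* and *Id3* and 15 for *Id2* and *Id3*. Over all pairs of members the longest shared run was 28 bases, between *Bmp4* and *Bmp7*, and *Smad1* and *Smad5* shared at most 17. Parts of 3 members overlap another annotated gene: 89 exon bases of *Bmp4* and 290 of *Bmpr1a* lie opposite a gene on the other strand, and 100 of *Smad5* hold a small RNA gene on the same strand. The strand setting of the counting is not given in the sources used here, so reads in these overlaps, at most 4.57% of a member's exon bases, cannot be assigned with certainty.

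Values are deposited log2 CPM, that is log2 of the reads of a gene scaled to a common library total, and the measured genes received 8682872 to 13539670 reads per library. The cDNA was amplified and carried no molecular identifiers, so read numbers speak to counting error alone. The floxed gene *Tgfbr2* had log2 CPM values of 7.16, 7.62, 7.64 and 7.52 in the control libraries 49 to 52 and 7.02, 7.00, 7.16 and 7.61 in the mutant libraries 53 to 56. The library labelled *Tgfbr2cko* 56 thus lay within the control range, and the library labelled *Tgfbr2cko* 55 lay level with the lowest control. The genotype difference of *Tgfbr2* was -0.29 (adjusted p = 0.79 by limma), and -0.42 without library 56 (adjusted p = 0.295 by limma). Reads were counted over the whole gene in RNA of mixed cells, so these values do not measure the deletion itself. Library 56 also stood apart by its enamel content, since *Amelx* and *Ambn*, which encode enamel matrix proteins, took 18.5% of its reads, against at most 2.74% in any other library. It also had the highest erythroid markers (5 of 6 measured), 2541 CPM in sum against 565 to 694 CPM in the other mutants and 655 to 1496 CPM in control pulp. Its *Acta2*, a smooth muscle actin gene, stood at 64.3 CPM, against at most 27.1 CPM in any other library. Because CPM is scaled to the library total, the enamel reads lower the CPM of all other genes in library 56. Its median log2 CPM over all genes was 4.81, against 4.92 to 5.08 in the other libraries. The members' values were not corrected for this in the reported setting. Values of the members and of the altered pathway genes that turn on library 56 are therefore given with and without it. Of the odontoblast markers, *Dspp* was abundant in every library (at least 4068 CPM), whereas *Dmp1* was at 22.3 to 174 CPM, and none of 5 skeletal muscle markers was among the measured genes.

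At the level of transcripts, the Id genes were far more abundant than the ligands, receptors and Smads. Levels of different genes can be compared only per length, so CPM was divided by the kilobases of the longest annotated transcript. In the controls *Id3* stood at 1510 ± 239 CPM per kilobase (SD, n = 4), rank 18 of 12144 genes. *Id1* followed at 207 ± 53.7 and *Id2* at 205 ± 53.5 CPM per kilobase (SD, n = 4 each). The ligands came next, with *Bmp2* at 71.5 ± 14.8, *Bmp7* at 68.9 ± 6.13 and *Bmp4* at 40.0 ± 3.43 CPM per kilobase (SD, n = 4 each). *Smad1* had 24.0 ± 3.41 and *Smad5* 10.7 ± 0.683 CPM per kilobase (SD, n = 4 each). The receptors were the least abundant members, *Bmpr1a* at 8.51 ± 0.395 and *Bmpr2* at 5.03 ± 0.251 CPM per kilobase (SD, n = 4 each). Neighbours in this order did not overlap across the control libraries except *Id1* with *Id2* and *Bmp2* with *Bmp7*. In the mutant libraries the same order of means did not hold throughout, because *Bmp7* (66.2 CPM per kilobase) lay just above *Bmp2* (64.8 CPM per kilobase). *Smad5* and *Bmpr1a* also overlapped across the mutant libraries.

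**Figure D1:**
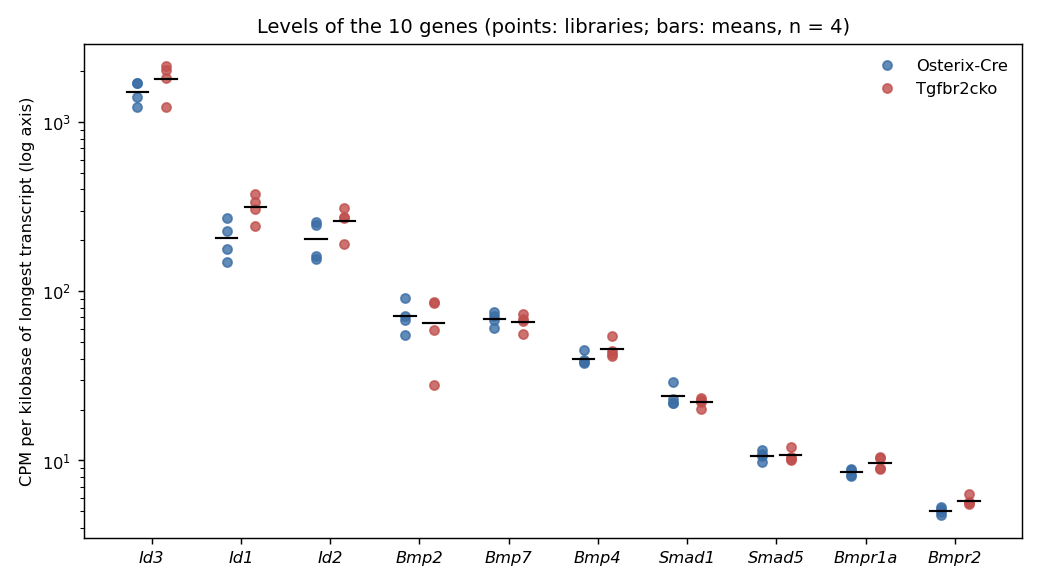
CPM per kilobase of the longest transcript (log axis) of the 10 genes in each library, Osterix-Cre in blue and *Tgfbr2cko* in red, with a black bar at each mean (n = 4). *Id3* lies at 1221 CPM per kilobase or more in every library, and the means of *Bmpr1a* and *Bmpr2* are the lowest in both genotypes.

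Between the genotypes, *Id1* was the only member that met the threshold used for altered genes, an unadjusted p under 0.05 by limma with a difference of at least 1.5-fold. Of all 12148 genes, 701 (5.77%) were altered, 258 of them (2.12%) with a higher level in *Tgfbr2cko*, so 1 of 10 members is close to what the measured genes show at large. No member reached an adjusted p under 0.05 by limma, against 115 genes (0.947%) of all, and at an unadjusted p under 0.05 there were 1 member, *Id1*, and 1018 genes. Values of the 2 genotypes did not overlap for 1 member, *Bmpr2*, against 640 genes (5.27%), of which 259 (2.13%) were higher in *Tgfbr2cko*. The mean was higher in *Tgfbr2cko* for 7 members and lower for 3, against 5933 genes higher and 6215 lower of all. Among the 7 was *Smad5* at a log2 fold change of 0.00015, whose sign turned in 10 of 19 other settings. The median log2 fold change (*Tgfbr2cko* minus Osterix-Cre) was 0.19 over the members and -0.01 over all genes. Without the library labelled *Tgfbr2cko* 56, the genotypes did not overlap for 4 members, namely *Bmpr2*, *Id1*, *Id2* and *Id3*, all higher in *Tgfbr2cko*. The same held for 1218 of all genes (10.03%), 790 of them (6.503%) higher in *Tgfbr2cko*.

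**Figure D2:**
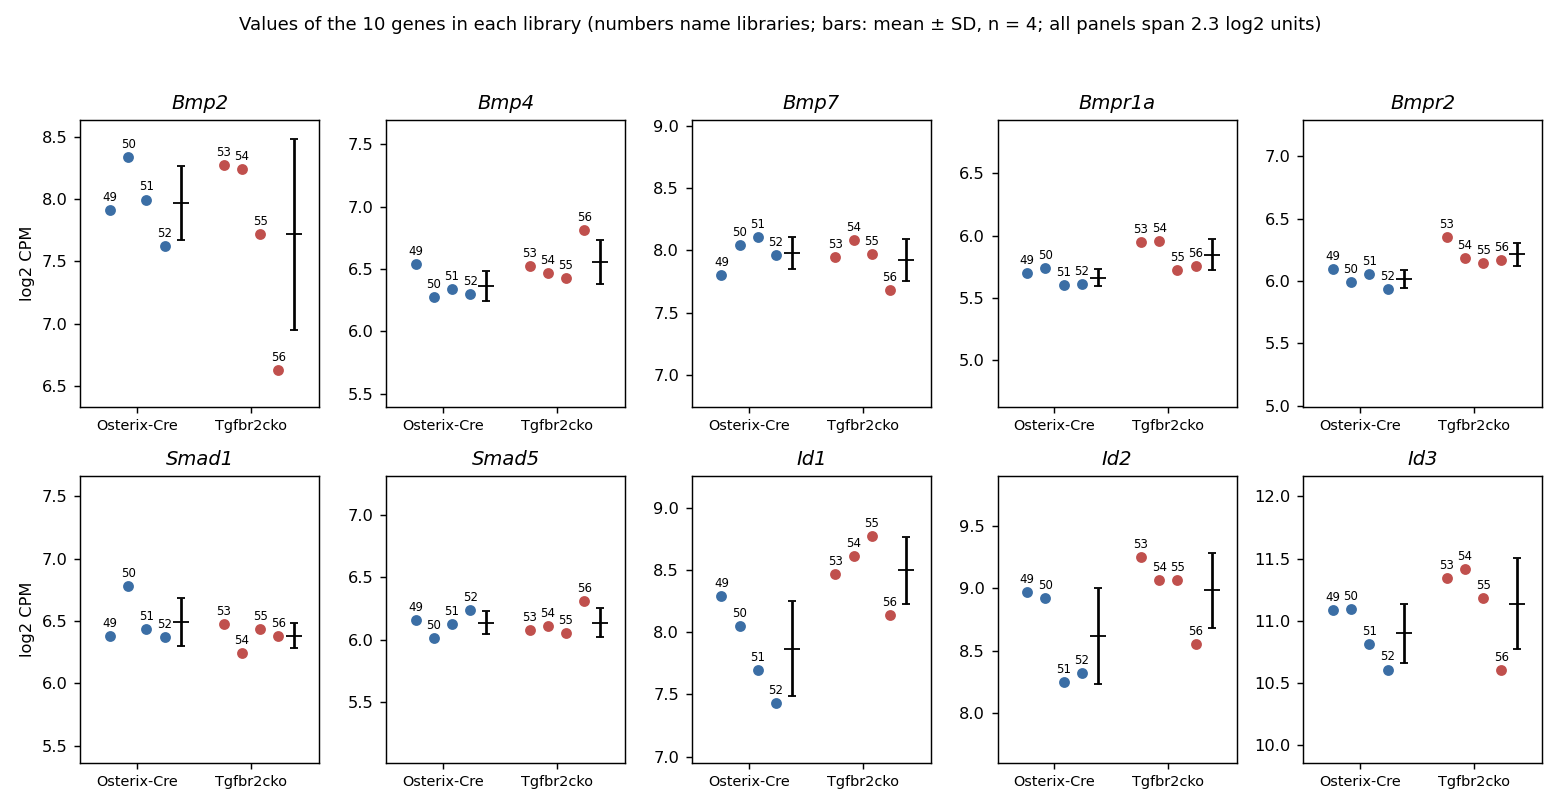
Log2 CPM of each member by library, with library numbers beside the points, genotypes side by side and the mean ± SD (n = 4) as a bar; every panel spans the same number of log2 units. The mutant points of *Id1* lie mostly above the controls, and library 56 is the lowest mutant for *Bmp2*, *Bmp7*, *Id1*, *Id2* and *Id3*.

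For the ligands *Bmp2*, *Bmp4* and *Bmp7* the genotypes overlapped, and each 95% interval of the difference held 0. On GRCm38 *Bmp2* lies at chr2:133552159-133562885, *Bmp4* at chr14:46383520-46390669 and *Bmp7* at chr2:172868012-172940321. *Bmp2*, a ligand made by dental epithelium and odontoblast-lineage cells, had log2 CPM values of 7.91, 8.34, 7.996 and 7.62 in control pulp and 8.27, 8.24, 7.72 and 6.63 in mutant pulp. Libraries 53 and 54 lay in the upper part of the control range, and the library labelled *Tgfbr2cko* 56 lay about 1 log2 unit under the lowest control. The resulting log2 fold change of -0.25 (95% interval -0.91 to 0.41, adjusted p = 0.98 by limma) changed sign without library 56, to 0.11. *Bmp4*, a ligand of dental mesenchyme from early tooth stages on, had values of 6.54, 6.27, 6.34 and 6.30 in control pulp and 6.52, 6.47, 6.43 and 6.82 in mutant pulp. Library 56 was here the highest of all, and the other mutants lay under control library 49. Its log2 fold change was 0.19 (95% interval -0.11 to 0.50, adjusted p = 0.872 by limma), and 0.11 without library 56. In library 56 the pair therefore stood in the opposite order, with *Bmp4* at 54.6 and *Bmp2* at 27.8 CPM per kilobase, whereas *Bmp2* was above *Bmp4* in the other 7 libraries. This was seen in 1 library and was noticed after the values were known; the part of the enamel content in it was not tested.

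*Bmp7*, a ligand expressed in epithelium and mesenchyme of the tooth, had overlapping values within a narrow range. Its log2 CPM was 7.80, 8.04, 8.11 and 7.96 in control pulp and 7.94, 8.08, 7.97 and 7.68 in mutant pulp. The difference of -0.06 had a 95% interval of -0.37 to 0.25, that is from 0.774-fold to 1.19-fold, and an adjusted p of 0.998 by limma. Of the 14 ligands listed for the pathway, 8 were measured and none was altered in the comparison of all 8 libraries at equal weight. The log2 fold changes of the 5 that are no members ranged from -0.49 to 0.62. With library 56 left out *Bmp3* (-0.92) and *Bmp8a* (0.62) were altered, with library weights *Bmp8a* (0.60) was, and with library 53 left out *Gdf6* (1.08) was.

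Both receptor genes, *Bmpr1a* at chr14:34410734-34503341 and *Bmpr2* at chr1:59763400-59879014 (GRCm38), had a slightly higher mean in *Tgfbr2cko*. *Bmpr2*, the type II receptor for BMPs, had log2 CPM values of 6.10, 5.99, 6.06 and 5.93 in control pulp and 6.35, 6.19, 6.15 and 6.17 in mutant pulp. Every mutant library lay above every control, with a gap of 0.05 log2 units between the groups. Its mean of 6.21 ± 0.09 against 6.02 ± 0.07 (SD, n = 4 each) gave an exact permutation p of 0.0286, the smallest that 70 arrangements of 4 against 4 libraries allow. The log2 fold change of 0.19, or 1.14-fold (95% interval 0.943 to 1.39), did not pass limma's test (adjusted p = 0.841). After each library was centred on its median, the groups overlapped. Leaving out any 1 library kept the log2 fold change between 0.15 and 0.22.

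*Bmpr1a*, a type I receptor, had log2 CPM values of 5.70, 5.74, 5.60 and 5.62 in control pulp and 5.95, 5.96, 5.73 and 5.75 in mutant pulp. Of the mutants, 3 of 4 lay above the highest control, and library 55 lay level with it. The log2 fold change was 0.18 (95% interval -0.11 to 0.48, adjusted p = 0.878 by limma), with an exact permutation p of 0.0571. The difference between the receptors was alike in both genotypes, as *Bmpr1a* minus *Bmpr2* was -0.36 ± 0.09 in control pulp and -0.37 ± 0.09 in mutant pulp (SD of log2 differences, n = 4 each). Among 12 listed receptors and co-receptors, 9 were measured and none was altered. *Eng*, a co-receptor abundant in endothelium, was the lowest of them, at a log2 fold change of -0.38 (adjusted p = 0.616 by limma). With 1 library left out it ranged from -0.46 (without 53) to -0.24 (without Osterix-Cre 50). Its unadjusted limma p of 0.0561 came under 0.05 with library weights, quantile normalization, median centring and without library 49, 52 or 53, though the difference stayed under 1.5-fold. It was -0.0053 with the mean of the endothelial markers, described further on, as a term.

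For the receptor-activated Smads the means of the genotypes were close. *Smad1* lies at chr8:79338395-79399518 and *Smad5* at chr13:56703010-56742377 (GRCm38). *Smad5* had log2 CPM values of 6.16, 6.02, 6.13 and 6.24 in control pulp and 6.08, 6.11, 6.05 and 6.31 in mutant pulp. The groups overlapped almost wholly, with means of 6.14 ± 0.09 and 6.14 ± 0.12 (SD, n = 4 each). The 95% interval of the difference, -0.29 to 0.29, leaves room for a change of up to 1.22-fold. *Smad1* had values of 6.38, 6.78, 6.44 and 6.37 in control pulp and 6.47, 6.25, 6.44 and 6.38 in mutant pulp. Control library 50 was set apart from the other 3 controls, which lay within 0.06 log2 units of each other. The log2 fold change of *Smad1* was -0.11 (95% interval -0.41 to 0.20, adjusted p = 0.988 by limma), and -0.013 without control library 50. *Smad9*, the third BMP-activated Smad, stood at -0.21 (adjusted p = 0.964 by limma), and *Smad4*, the partner shared with TGFβ signalling, at 0.27 (adjusted p = 0.877 by limma). With 1 library left out *Smad9* ranged from -0.36 (without 54) to -0.033 (without 56), and *Smad4* from 0.091 (without 53) to 0.39 (without 55).

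All 3 Id genes had a higher mean in *Tgfbr2cko*, with the log2 fold change largest for *Id1* and smallest for *Id3*. The genes lie at chr2:152736251-152737410, chr12:25093799-25097140 and chr4:136143497-136145755 (GRCm38), on different chromosomes. *Id1* had log2 CPM values of 8.29, 8.05, 7.70 and 7.43 in control pulp and 8.47, 8.61, 8.77 and 8.14 in mutant pulp. Libraries 53, 54 and 55 exceeded every control, and library 56 exceeded 3 of 4. The control values themselves were spread over 0.86 log2 units, more than the mutants. The means were 7.87 ± 0.38 and 8.50 ± 0.27 (SD, n = 4 each), a log2 fold change of 0.63, or 1.55-fold (95% interval 1.14 to 2.09). By limma the unadjusted p was 0.0080 and the adjusted p 0.236. The exact permutation p of 0.0571 was above 0.05. *Id1* was read 1766 to 4808 times per library, so counting error is small beside the spread between libraries.

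Leaving out any 1 library kept the difference of *Id1* between 0.48 and 0.77 on the log2 scale, with an unadjusted limma p of at most 0.032. Without Osterix-Cre 51 or 52 or without *Tgfbr2cko* 55, the difference was 0.57, 0.48 or 0.54, and *Id1* no longer reached 1.5-fold. Without library 56 it was 0.75 (adjusted p = 0.102 by limma). When limma weighted the libraries by their agreement with the rest of their group, which gave library 56 the lowest weight, the log2 fold change was 0.78 and the adjusted p 0.0273. This was the only setting in which a member reached an adjusted p under 0.05.

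*Id2* had log2 CPM values of 8.97, 8.92, 8.25 and 8.32 in control pulp and 9.25, 9.07, 9.07 and 8.55 in mutant pulp. The controls formed a higher pair (49 and 50) and a lower pair (51 and 52), and library 56 lay between the pairs. Over all libraries the log2 fold change was 0.37 (95% interval -0.09 to 0.83), with an adjusted p of 0.758 by limma and an exact permutation p of 0.171. Without library 56 it was 0.51, with limma p-values of 0.0203 unadjusted and 0.352 adjusted. Libraries 49 and 50 share the title number 4, and when libraries that share genotype and title number were averaged the difference was 0.48, with an unadjusted limma p of 0.0479.

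*Id3*, the most abundant member, had log2 CPM values of 11.09, 11.09, 10.81 and 10.61 in control pulp and 11.35, 11.41, 11.18 and 10.61 in mutant pulp. Libraries 53 to 55 exceeded all controls, whereas library 56 lay level with the lowest control. The log2 fold change of 0.24 (95% interval -0.28 to 0.75, adjusted p = 0.96 by limma) became 0.41 without library 56, with limma p-values of 0.0579 unadjusted and 0.556 adjusted. The balance within the family, taken as *Id1* minus *Id3*, was -3.03 ± 0.17 in control pulp and -2.64 ± 0.23 in mutant pulp (SD of log2 differences, n = 4 each), and the genotypes overlapped. Libraries 55 and 56 had the highest values of this difference, -2.41 and -2.47. *Id4*, the fourth Id gene, had a log2 CPM of 4.49 ± 0.45 in control pulp and 4.65 ± 0.39 in mutant pulp (SD, n = 4 each; adjusted p = 0.995 by limma), and its difference ranged from 0.0086 to 0.32 with 1 library left out. The E proteins that Id proteins bind, *Tcf3*, *Tcf4* and *Tcf12*, were all measured, with log2 fold changes of 0.02 to 0.08 and none altered.

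**Figure D3:**
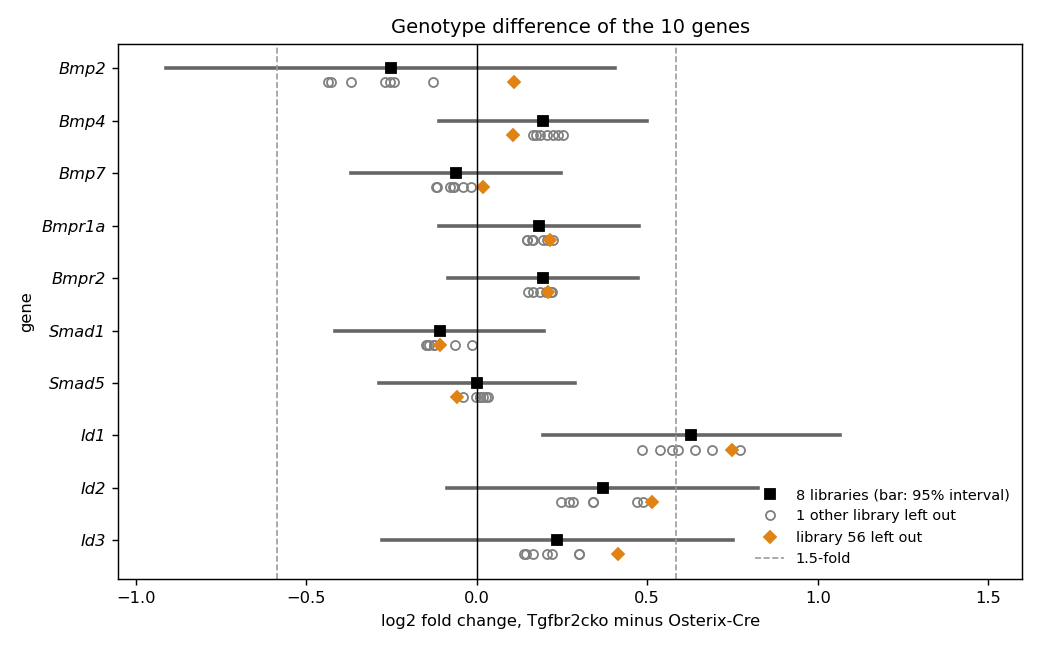
Log2 fold change (*Tgfbr2cko* minus Osterix-Cre) of each member from all 8 libraries with its 95% interval, and below it the values with each library left out in turn. Only the interval of *Id1* lies wholly above 0. Leaving out library 56 moves *Bmp2*, *Bmp7*, *Id1*, *Id2* and *Id3* to the right and *Bmp4* and *Smad5* to the left.

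The pulp RNA comes from several cell types, and fewer cells of a type and less RNA per cell cannot be told apart in it. All 10 endothelial markers had a lower mean in *Tgfbr2cko*. Of them 2 were altered, 1 had an adjusted p under 0.05 by limma and 3 did not overlap between the genotypes. Their summed level was 431 to 581 CPM in control pulp and 346 to 451 CPM in mutant pulp. None of the 10 was at 0 reads in any library. *Id1* and *Id3* are also expressed in endothelium, where BMP signalling is active, and their means were higher where the endothelial markers were lower. With the mean log2 value of the endothelial markers as a further term, the log2 fold change of *Id1* was 0.61 with an unadjusted limma p of 0.128. Under the same term *Id2* stood at 0.41, *Id3* at 0.15, *Bmp4* at 0.037, *Bmpr1a* at 0.11 and *Bmpr2* at 0.099. *Bmp2* stood at -0.29, *Bmp7* at -0.0080, *Smad1* at 0.20 and *Smad5* at -0.099. The mean value of the endothelial markers separated the genotypes, with 5.30 to 5.79 in control pulp and 4.89 to 5.27 in mutant pulp. Genotype and endothelial level therefore cannot be told apart in these libraries. The enamel epithelium markers summed to 4178 to 23631 CPM in control pulp and 4444 to 30330 CPM in libraries 53 to 55, and to 195912 CPM in library 56. *Amelx* and *Ambn* made up most of each of these sums. Of the 10 enamel markers 6 had a higher and 4 a lower mean in *Tgfbr2cko*, with 1 altered in each direction. The lower one was *Klk4*, which encodes an enamel protease and ranged from 154 to 220 CPM in control pulp and from 18.4 to 42.0 CPM in mutant pulp. With the enamel matrix genes as a term, *Id1* stood at 0.66 (adjusted p = 0.258 by limma). The macrophage markers (6 of 6 measured) had lower means in *Tgfbr2cko*, 467 to 968 against 748 to 1113 CPM in sum, of which 1 was altered. Pericyte and smooth muscle markers (4 of 6 measured) summed to 209 to 244 CPM in mutant pulp and 268 to 338 CPM in control pulp. Of these 4, 3 had a lower and 1 a higher mean in *Tgfbr2cko*. Only *Rgs5* was altered, with an adjusted p under 0.05 by limma and no overlap of the genotypes. Of the 6 odontoblast markers, 5 had a lower mean in *Tgfbr2cko* and 2 were altered, with sums of 61666 to 135630 CPM in Osterix-Cre and 36878 to 75275 CPM in *Tgfbr2cko*. The collagen genes *Col1a1* and *Col1a2* made up most of each of these sums. *Dspp* overlapped, at 5773 to 16555 CPM in control pulp and 4068 to 9511 CPM in mutant pulp, and *Phex* had a higher mean in *Tgfbr2cko*. Both measured bone markers of 4 listed, *Ibsp* and *Dkk1*, were altered and higher in *Tgfbr2cko*, 77.8 to 240 against 39.1 to 74.1 CPM in sum. The part of the macrophage, pericyte, odontoblast and bone cells in the members' values was not tested.

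The remaining pathway genes did not move as a block. Of 74 listed genes 58 were measured, and of the 48 that are no members 2 were altered with a higher and 2 with a lower level in *Tgfbr2cko*. Over all 12148 genes 258 were altered with a higher and 443 with a lower level, together 5.77%. The median log2 fold change of the 48 was -0.01, as over all genes. In the comparison of all 8 libraries at equal weight with genotype as the only term, none had an adjusted p under 0.05 by limma. The altered genes were 2 intracellular inhibitors, 1 secreted antagonist and 1 target gene. None of them was altered with the endothelial markers as a term, where the log2 fold changes were 0.41 for *Bambi*, -0.37 for *Skil*, 1.14 for *Sostdc1* and -0.45 for *Gata2*. The unadjusted limma p in that order was 0.235, 0.386, 0.146 and 0.438.

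*Bambi*, which encodes a decoy receptor that lacks a kinase domain and dampens BMP and TGFβ signalling, had log2 CPM values of 9.30, 9.25, 9.66 and 9.39 in control pulp and 9.80, 10.34, 9.95 and 10.05 in mutant pulp. All mutants lay above all controls. The log2 fold change was 0.64 (95% interval 0.25 to 1.03, adjusted p = 0.145 by limma), with an exact permutation p of 0.0286, and it was 0.64 without library 56. Without library 54 it was 0.54, which is under 1.5-fold. *Skil* encodes SnoN, a repressor of Smad complexes that is itself a known TGFβ target. Its values were 5.88, 5.62, 5.79 and 6.11 in control pulp and 4.74, 4.60, 5.62 and 5.57 in mutant pulp. Libraries 53 and 54 were far below the controls, while library 55 was under the lowest control by 0.00032 log2 units. Over all libraries the log2 fold change of *Skil* was -0.71 (adjusted p = 0.253 by limma, exact permutation p = 0.0286), and without library 56 it was -0.86. Without library 53 or 54 it was -0.58 or -0.54, again under 1.5-fold. With the enamel matrix genes as a term it was -0.95 (adjusted p = 0.0275 by limma). The other 8 intracellular inhibitors were not altered. Among them were *Smad6* at -0.17 and *Smad7* at 0.20, which encode the inhibitory Smads and are induced by BMP and TGFβ signalling (adjusted p = 0.998 and 0.971 by limma).

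*Sostdc1*, which encodes a secreted BMP and WNT antagonist of tooth epithelium, was the only one of 11 measured antagonists to be altered in the comparison of all 8 libraries at equal weight with genotype as the only term. Its log2 CPM was 6.15, 5.57, 5.96 and 4.84 in control pulp and 6.33, 6.06, 6.76 and 8.21 in mutant pulp. Library 56, with the highest enamel content, had by far the highest value, and the log2 fold change of 1.21 became 0.76 without it (adjusted p = 0.255 and 0.313 by limma). The log2 fold change was 0.75 with the enamel matrix genes as a term (adjusted p = 0.322 by limma), where *Sostdc1* stayed altered. *Chrd*, the antagonist chordin, stood at -0.57 (adjusted p = 0.614 by limma). It was altered without library 49, 54 or 55 (-0.81, -0.71 and -0.70) and with title numbers averaged (-0.67), and it was -0.34 without library 56. *Crim1*, which encodes a membrane protein that binds BMPs, was altered with the endothelial markers as a term (-0.77). Of the 10 measured target genes that are no members, *Gata2* alone was altered, at a log2 fold change of -0.89 (adjusted p = 0.327 by limma) on 17 to 75 reads per library. Without Osterix-Cre 50 it was -0.72 with an unadjusted limma p of 0.0582. *Gata2* is also expressed in endothelial cells. *Msx1* and *Msx2*, homeobox genes of the dental mesenchyme, stood at -0.35 and 0.29 (adjusted p = 0.859 and 0.76 by limma), and -0.097 and 0.39 without library 56.

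**Figure D4:**
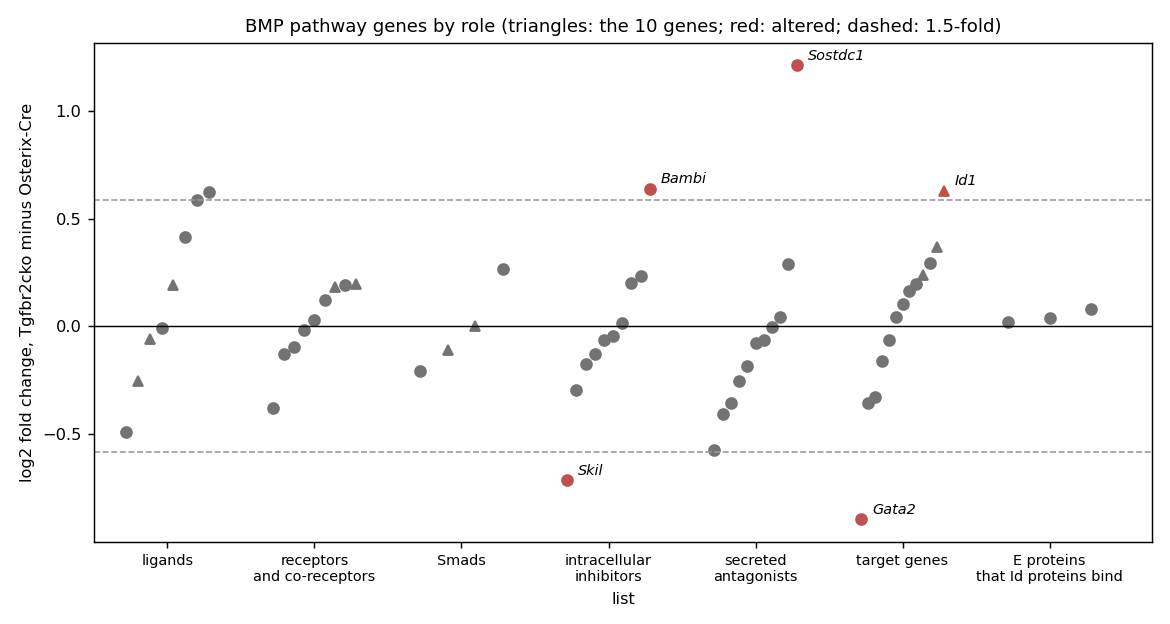
Log2 fold change (*Tgfbr2cko* minus Osterix-Cre) of each of the 58 measured BMP pathway genes by role, with triangles for the 10 members, red for altered genes and dashed lines at 1.5-fold. *Bambi*, *Sostdc1* and *Id1* are the red points above 0, and *Skil* and *Gata2* those below.

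The genes whose values followed *Id1* most closely across the 8 libraries were *Mrps22* (Pearson's r = 0.983), *Fam102b* (0.980), *Zfand4* (0.961), *Ankrd9* (0.960) and *Lrrcc1* (0.957). These are the highest of 12147 possible partners over only 8 points, all from libraries that share the genotype contrast, and they are given as a description. By the same measure *Id2* ranked 40 (r = 0.876) and *Id3* 175 (r = 0.790).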

How the data were processed

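RNA from P7 first molar pulp was amplified from a low input and sequenced in 8 libraries. Per the paper's methods and the submitters' processing notes, the authors used fastp 0.21.0, HISAT2 2.1.0, featureCounts (Subread 2.0.1), GRCm38.p5 and GENCODE M14, filtered genes with the CLEAR workflow for reliable quantification, and transformed counts with voom. The deposited values are log2 CPM with 0.5 added to each count. All 97184 values gave whole reads within 0.001 of a read, 8682872 to 13539670 per library, and 1 read is worth 0.0739 to 0.115 CPM. Of 12148 identifiers, 12144 matched a symbol in GENCODE M21.

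Genotypes were compared on the deposited values with limma 3.58.1 in R 4.3.3 (two-sided, intensity trend, 4 against 4 libraries) and adjusted over all genes by the Benjamini-Hochberg method. Altered means an unadjusted p under 0.05 and at least 1.5-fold. A two-sided exact permutation test was added for single genes. The members, all pathway and marker lists and 1 alternative (the enamel term) were chosen with earlier results of these data known. All members were named, and of the pathway lists those altered, those not overlapping and some unaltered receptors, Smads, inhibitors and targets, and the E proteins. *Bmp3*, *Bmp8a*, *Gdf6*, *Chrd*, *Crim1*, *Msx1*, *Msx2* and the log2 differences between paired members were picked after their values were seen. The model was tested on simulated data. Coding sequences came from the GENCODE M21 transcripts. Figures were drawn with matplotlib 3.10.9 in Python 3.11.15.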

Additional observations from a re-analysis of the deposited data

Results flagged for a closer look

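*Smad1* in Osterix-Cre 50 (log2 CPM 6.78) lay far from the other 3 controls. Its gap to the nearest of them took 0.843 of the group's whole range, above Dixon's 95% critical value for 4 samples. The measure was taken in both genotypes for the 10 members and 14 other named genes, 48 groups of 4 values, and 1 was past that value, where chance gives about 1 in 20. The other pathway genes were not examined in this way.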

How the results depend on the processing

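Besides the reported setting, 19 others were run, 8 of which leave out 1 library. Over the 10 members and these settings, 168 log2 fold changes kept their direction and their side of an unadjusted p of 0.05, and 15 turned. *Id2* passed it in 6 settings and *Id1* lost it in 1. Members altered numbered 0 with the endothelial term and at 2-fold, members with an adjusted p under 0.05 numbered 1 with library weights, and members not overlapping numbered 0 after median centring. With the endothelial term 1 pathway gene outside the members was altered (*Crim1*, and none of the 4 reported ones), as were 419 genes in all, and 3 had an adjusted p under 0.05, and library weights gave 258 of the last. Leaving out 1 library gave 0 to 1 members altered, 0 to 0 with an adjusted p under 0.05 and 1 to 4 not overlapping. It gave 3 to 6 altered pathway genes outside the members, 625 to 947 altered genes, 65 to 165 with an adjusted p under 0.05 and 837 to 1218 not overlapping.

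The sign turned for *Bmp2* with the enamel term and without library 56 (0.11 in both), for *Bmp7* likewise (0.033 and 0.018), and for *Smad1* with the endothelial term (0.20). With 1 library left out, *Bmp2* ranged from -0.44 to 0.11, *Bmp7* from -0.12 to 0.018, *Smad6* from -0.48 to 0.093 and *Smad7* from -0.030 to 0.32. *Smad5*, at 0.00015 in the reported setting, turned with library weights (-0.032), median centring (-0.0012), 5 reads added (-0.00034), averaging by title number (-0.016), the enamel term (-0.048) and the endothelial term (-0.099), and ranged from -0.057 to 0.035 with 1 library left out (-0.040 without 50, -0.0023 without 51). *Id4* turned with the endothelial term (-0.15), *Smad7* with it (-0.039) and without library 53 (-0.030), and *Smad6* with the enamel term (0.036) and without library 50 (0.019) or 56 (0.093). *Tgfbr2* and *Smad4* turned with the endothelial term (0.011 and -0.075). The cause was not tested. With exons merged in place of the longest transcript, *Id3* stood at 1078 CPM per kilobase and the order of the members was kept. The title numbers do not pair the libraries by any label. A fit with them as a replicate block, added after the data were seen, takes the genotype difference from title number 2 alone (library 51 against 54 and 55). It gave 2 altered members (*Id1* at 1.00 and *Id2* at 0.82), 0 with an adjusted p under 0.05, 0 altered pathway genes outside the members, 313 altered genes and 0 with an adjusted p under 0.05, and it turned *Smad5* (-0.050), *Smad6* (0.18) and *Smad9* (0.089). The 95% intervals of the members reach 0.28 to 0.66 log2 units to either side of the difference.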
